A study of Bos taurus with 40 samples.

Results

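The 5 mucosal defence genes DMBT1, LYZ1, LTF, LCN2 and PIGR were followed in the bovine endometrium, the inner lining of the uterus. They were taken by gene symbol, and all 5 have a row among the 32671 named genes of the deposited read counts. The samples were endometrium from synchronised heifers killed 5, 7, 13 or 16 days after oestrus, with 5 libraries from the uterine horn on the side of the corpus luteum (ipsilateral) and 5 from the opposite (contralateral) horn on each day, 40 libraries in 8 groups. No treatment or genotype separates the groups, and the number of days and the horn are all that differs by label. The series' design text counts the days from oestrus, whereas the samples' time field calls them days of pregnancy, and no label says whether a conceptus was present. Each title carries a tag, read here as that of the heifer, since the 20 tags occur once in each horn and both horns of each heifer were sampled. The study asked whether the transcriptome of the endometrium differs between the horns in the days before and around conceptus elongation.

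These 5 proteins are released onto, or carried across, wet epithelial surfaces such as those of the airway, gut, mammary gland and reproductive tract. Lactoferrin, encoded by LTF, binds free iron that bacteria need, and lipocalin 2, encoded by LCN2, captures the small molecules with which bacteria collect iron. LYZ1 encodes a lysozyme, an enzyme that cuts the peptidoglycan of bacterial walls. DMBT1 encodes a large scavenger receptor cysteine-rich glycoprotein that binds and clumps bacteria. PIGR encodes the polymeric immunoglobulin receptor, which carries dimeric IgA and pentameric IgM through epithelial cells and releases them with its secretory component. In the ruminant uterus the gland and surface epithelium changes its secretions as progesterone from the corpus luteum rises over these days.

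The 4 genes with enough reads for a test in each horn followed 4 different courses over the days, and the course of each was alike in outline in the horns. LTF was high on days 5 and 7 and low on days 13 and 16. DMBT1 was high on day 5 alone. LYZ1 was low until day 7 and high on days 13 and 16. PIGR was lowest on day 7 and above that level on the other days. LCN2 was close to the limit of detection throughout. Levels below are CPM, the reads of a gene for every 1000000 reads of its library, after the library's total was scaled by the trimmed mean of M values (TMM), and they are not corrected for gene length, so levels are compared between groups and never between genes.

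**Figure D1:**
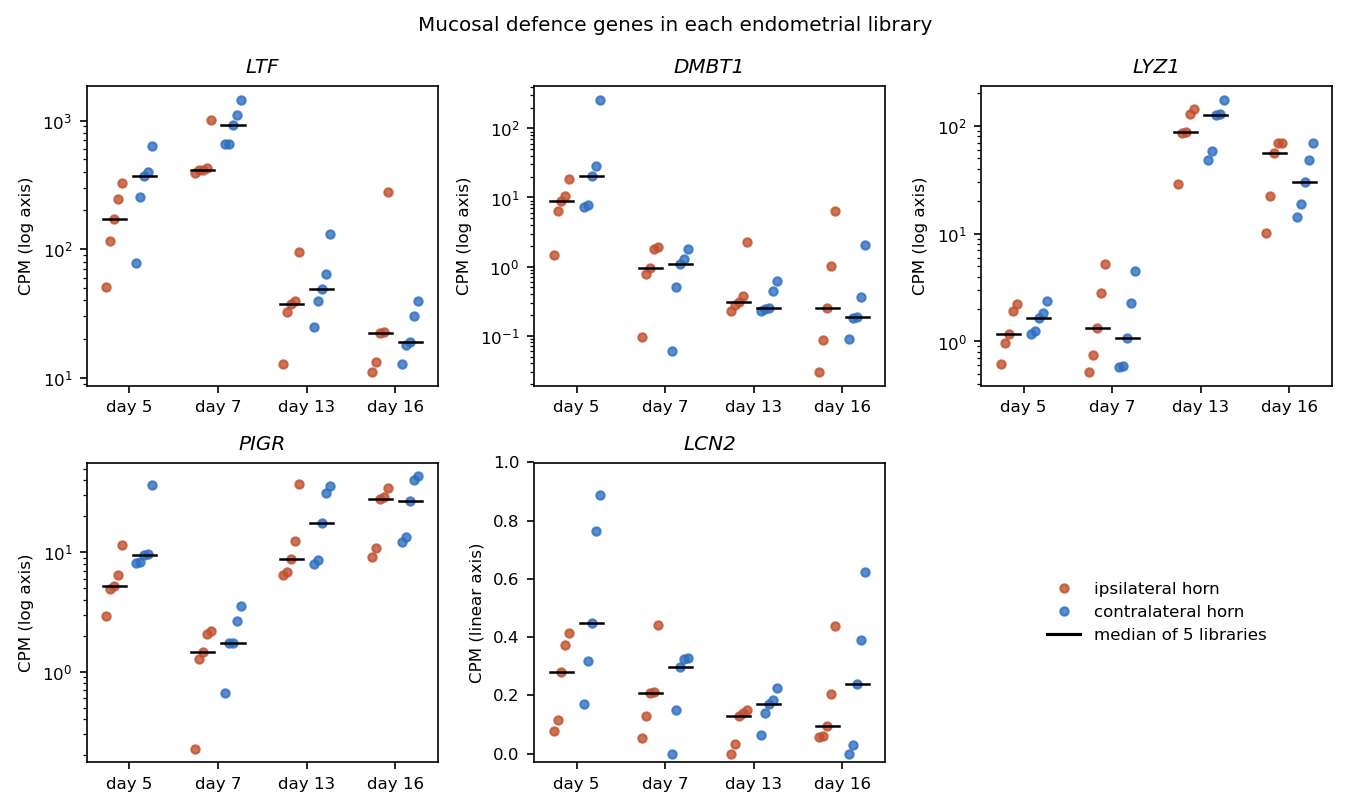
CPM of each mucosal defence gene in each of the 40 libraries, by day and horn, on a log axis for LTF, DMBT1, LYZ1 and PIGR and a linear axis for LCN2. Points are libraries and bars are medians of 5. LYZ1 lies between 0.518 and 5.25 CPM in the libraries of days 5 and 7 and between 10.05 and 174.9 CPM in those of days 13 and 16.

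The libraries held 27025591 to 64364661 counted reads. The first principal component was taken over the most variable genes past a filter on low counts, and held 42.1% of their variance. It separated days 5 and 7 from days 13 and 16, except that the ipsilateral day 16 library with tag 5-137 lay at 7.1. The other 4 libraries of its group lay between 50.2 and 56.8. Values that turn on that library are therefore given with and without it. Epithelial markers were present in all libraries, with a summed level of 15 genes between 1047 and 2495 CPM, and haemoglobin and red cell genes summed to at most 2.62 CPM. In the ipsilateral horn 9 of the 15 epithelial markers rose from day 5 to day 7 and 2 fell, while 6 of 10 stromal and 8 of 10 smooth muscle markers fell, where 28.8% of all genes passed. Over the same span 4 epithelial markers rose and 2 fell in the contralateral horn, and 4 stromal and 4 smooth muscle markers fell, where 20.4% of all genes passed. What part these shifts have in the changes from day 5 was not tested, and in pieces of whole tissue fewer cells of a type and less RNA per cell cannot be told apart. Between days 7 and 13, 4 epithelial markers rose in each horn and 4 (ipsilateral) or 3 (contralateral) fell, where 28.6% and 33.5% of all genes passed.

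Changes between days were tested in each horn by edgeR's quasi-likelihood test, with p-values adjusted by the Benjamini-Hochberg method over all genes tested and a threshold of 0.05. The 5 libraries of a group carry different tags, and the tests measure the spread between them. Between days 5 and 7, 2 of the 4 genes tested passed in the ipsilateral horn and 3 of 5 in the contralateral horn, against 28.8% and 20.4% of all genes. Between days 7 and 13, 3 of 4 and 3 of 5 passed, against 28.6% and 33.5% of all genes. Between days 13 and 16 none passed in either horn, where 0.446% and 1.68% of all genes did. Over the longer spans from day 5 to day 13, 3 genes passed in each horn, against 40.8% and 43.6% of all genes. For days 5 and 16, 2 and 3 genes passed, against 38.9% and 43.8% of all genes. For days 7 and 16, 3 passed in each horn, against 31.4% and 38.3% of all genes. With so large a share of all genes passing, the count of members is not a result in itself, and the direction and size of each gene's change are given instead.

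LTF, the iron-binding member, peaked on day 7. In the ipsilateral horn its 5 libraries held 50.7, 116.4, 172.3, 247.4 and 324.7 CPM on day 5, and 391.7, 411.9, 416, 427.2 and 1010 CPM on day 7. They held 12.7, 32.2, 37.5, 39.5 and 94.1 CPM on day 13, and 11.01, 13.3, 22.4, 22.5 and 280.3 CPM on day 16. All day 7 libraries lay above all libraries of the other 3 days, and on day 16 the library 5-137 stood far above its group. Contralateral LTF held 78.7, 254.2, 368.3, 397.2 and 630.3 CPM on day 5, and 653.9, 657.5, 918.2, 1101 and 1455 CPM on day 7. It held 24.8, 39.3, 49.4, 63.8 and 130.1 CPM on day 13, and 12.7, 17.8, 19.1, 30.1 and 39.3 CPM on day 16. Here too no library of another day reached the lowest day 7 library.

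The main step of LTF was its fall from day 7 to day 13. Its mean went from 531.4 ± 268 CPM (SD, n = 5) to 43.2 ± 30.4 CPM in the ipsilateral horn, a log2 fold change of -3.63 ± 0.84 (SE), or 12.4-fold lower, with an adjusted p of 0.00295 by edgeR. The contralateral mean went from 957.1 ± 336.1 to 61.5 ± 40.9 CPM, a log2 fold change of -3.97 ± 0.52, or 15.6-fold lower, with an adjusted p of 8.11e-06 by edgeR. These falls kept their call under every alternative run. The rise from day 5 to day 7 was smaller. It passed in the contralateral horn, with a log2 fold change of 1.48 ± 0.47 and an adjusted p of 0.0304 by edgeR, although the call was lost when any 1 of 6 libraries was left out (adjusted p 0.0504 to 0.0769) and in a fit of all 40 libraries (adjusted p 0.117). In the ipsilateral horn the log2 fold change was 1.55 ± 0.77, with an adjusted p of 0.142 by edgeR. Without the library 5-137 that adjusted p was 0.0236, and with the libraries of the 2 days only it was 0.0324.

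Against day 5, LTF on day 16 was 14.5-fold lower in the contralateral horn, with a log2 fold change of -3.86 ± 0.51 and an adjusted p of 6.57e-06 by edgeR. In the ipsilateral horn the same span gave -1.40 ± 0.77 and an adjusted p of 0.16 by edgeR, and without the library 5-137 it gave -3.42 and 0.000169, while limma-voom gave -2.42 and 0.00894. By day 13 the ipsilateral level was already 4.25-fold below that of day 5, at -2.09 ± 0.79 and an adjusted p of 0.0415 by edgeR, a call lost when any 1 of 7 libraries was left out (adjusted p up to 0.0955). LTF is also a granule protein of neutrophils, so their markers are given beside it. Of 15 neutrophil markers, 13 are in the table, and their summed level ran from 7.68 to 43.7 CPM on ipsilateral day 7 and from 8.68 to 12 CPM on ipsilateral day 13. Their contralateral sum ran from 6.32 to 34.8 and from 10.5 to 15.4 CPM. Most of that sum was FCGR3A, an Fc receptor gene also used by other white cells, and without it the other 12 summed to 1.36 to 2.24 CPM on ipsilateral day 7, 0.94 to 1.76 CPM on ipsilateral day 13, and 1.33 to 2.02 and 1.11 to 3.23 CPM in the contralateral horn. Of the genes of neutrophil granules in the list, the highest library held 3.82 CPM of MMP9, 0.477 CPM of AZU1, 0.315 CPM of MPO, 0.203 CPM of PRTN3, 0.14 CPM of ELANE, 0.0599 CPM of CAMP and 0.0297 CPM of MMP8. The part of these cells in the course of LTF was not tested.

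LCN2, the other iron-withholding member, was scarcely detected. All 40 libraries together held 320 of its reads, between 0 and 31 per library, and 3 libraries had none. A count of 3, the limit that a count of 0 allows, is worth 0.0466 to 0.111 CPM in these libraries and covers counting error only. The highest group was contralateral day 5, with 0.17, 0.318, 0.449, 0.763 and 0.89 CPM, and the lowest was ipsilateral day 13, with 0, 0.0338, 0.13, 0.14 and 0.151 CPM. The gene passed the filter on low counts in the contralateral horn and in the comparison of horns only. No comparison of these groups called it with all libraries: the contralateral change from day 5 to day 13 was -1.69 ± 0.75 on the log2 scale, with an adjusted p of 0.0777 by edgeR, which went to 0.0486 without the contralateral day 16 library 7-107. Without the filter, the same span gave -1.49 in the ipsilateral horn, with an adjusted p of 0.152.

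LYZ1, the lysozyme, switched from low to high between days 7 and 13. Its ipsilateral libraries held 0.621, 0.976, 1.18, 1.92 and 2.21 CPM on day 5 and 0.518, 0.755, 1.33, 2.83 and 5.25 CPM on day 7. They then held 29, 85.9, 88, 127.9 and 142.1 CPM on day 13 and 10.05, 22.6, 56.5, 69.3 and 69.4 CPM on day 16. Every library of the later days lay above every library of the earlier days. The contralateral libraries held 1.16, 1.24, 1.64, 1.84 and 2.36 CPM on day 5 and 0.575, 0.595, 1.07, 2.28 and 4.48 CPM on day 7. They held 48.3, 57.8, 125.4, 127.7 and 174.9 CPM on day 13 and 14.2, 18.7, 30.3, 48.6 and 68.6 CPM on day 16. The separation was as complete in that horn.

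LYZ1 rose 44.1-fold from day 7 to day 13 in the ipsilateral horn, from 2.14 ± 1.96 to 94.6 ± 44.2 CPM (SD, n = 5), a log2 fold change of 5.46 ± 0.67 (SE) with an adjusted p of 1.01e-05 by edgeR. Its contralateral rise was 58.5-fold, from 1.80 ± 1.65 to 106.8 ± 53 CPM, a log2 fold change of 5.87 ± 0.60 with an adjusted p of 5.24e-07 by edgeR. No change passed from day 5 to day 7, where the log2 fold changes were 0.59 ± 0.63 and 0.14 ± 0.57 (adjusted p 0.508 and 0.889 by edgeR). On day 16 the mean was below that of day 13, at 45.5 ± 27.6 and 36.1 ± 22.5 CPM. The log2 fold changes of -1.05 ± 0.55 and -1.56 ± 0.49 did not pass (adjusted p 0.5 and 0.123 by edgeR), while limma-voom gave -1.64 and an adjusted p of 0.037 in the contralateral horn. All 8 calls of LYZ1 between early and late days were kept under every alternative run.

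Cattle carry a cluster of lysozyme genes that arose by duplication, with members used in the stomach, in blood cells and at other surfaces, and their reads can be split between copies. In the RefSeq gene table of assembly ARS-UCD2.0, LYZ1 is an older name of 2 loci of that cluster, LOC281287 and LOC781349, with 13 other entries between them, and which of them the row of the count table stands for could not be settled, so the level of LYZ1 is uncertain by that much. The other lysozyme rows did not rise with it. LYZ, with 1.65 to 22.5 CPM over the libraries, gave log2 fold changes of -0.27 ± 0.46 and 0.12 ± 0.44 from day 7 to day 13 in the ipsilateral and contralateral horn (adjusted p 0.706 and 0.866 by edgeR). LYZ2 rose earlier, from day 5 to day 7, by 1.58 ± 0.44 and 1.95 ± 0.46 on the log2 scale (adjusted p 0.0126 and 0.00532 by edgeR), the ipsilateral rise being 1.08 with an adjusted p of 0.0559 without the library 4-064, and from day 7 to day 13 gave -0.89 ± 0.43 and -0.70 ± 0.44 (adjusted p 0.132 and 0.231). That change passed at -1.17 in each horn without 1 library, 5-117 (ipsilateral, adjusted p 0.0362) or 5-140 (contralateral, adjusted p 0.0418). LYSB fell from day 7 to day 13, by 2.70 ± 0.76 and 2.97 ± 0.64 on the log2 scale (adjusted p 0.0114 and 0.00128 by edgeR), from means of 0.364 and 0.71 CPM to 0.0527 and 0.0865 CPM. Both of those later means are within the worth of 3 counts. LYZ3, LYZ1-2 and LYZL6 had 47, 14 and 11 reads in all 40 libraries, LYZL1 had 114, and no change is given for them. Of the unnamed protein-coding loci that lie among these lysozyme genes, 4 have a row in the count table. LOC781146, with 0.812 to 25.1 CPM over the libraries, fell from day 7 to day 13 by 1.73 ± 0.53 and 1.86 ± 0.52 on the log2 scale (adjusted p 0.0188 and 0.00944 by edgeR). LOC785803 fell by 2.45 ± 0.65 and 2.75 ± 0.62 (adjusted p 0.0081 and 0.00193), opposite to LYZ1. LOC617219 gave 0.30 ± 0.60 and 0.15 ± 0.64 (adjusted p 0.758 and 0.885), and LOC787241 had 7 reads in all.

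**Figure D2:**
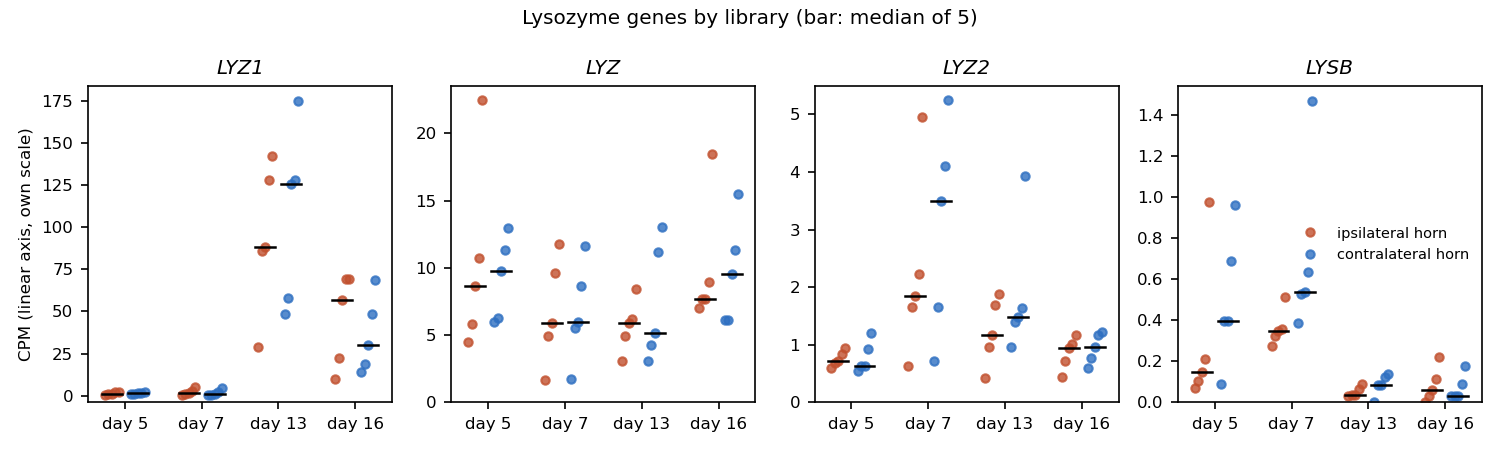
CPM of LYZ1 and of 3 other lysozyme rows in each library, by day and horn, on linear axes with a scale for each gene. LYZ1 is high on days 13 and 16, LYZ overlaps between all days, and LYZ2 has its highest medians on day 7.

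DMBT1, the bacteria-clumping scavenger protein, was high on day 5 only. In the ipsilateral horn the day 5 libraries held 1.47, 6.30, 9.03, 10.5 and 18.7 CPM, and the day 7 libraries 0.0972, 0.785, 0.944, 1.83 and 1.93 CPM. The day 13 libraries held 0.227, 0.28, 0.304, 0.379 and 2.30 CPM, and the day 16 libraries 0.0297, 0.0872, 0.251, 1.02 and 6.45 CPM. The lowest day 5 library overlapped with later days, and in each of days 13 and 16 a single library, 6-203 and 5-137, stood above its group. In the contralateral horn the day 5 libraries held 7.235, 7.66, 20.2, 28.9 and 260.1 CPM, and the day 7 libraries 0.0605, 0.507, 1.09, 1.27 and 1.81 CPM. The day 13 libraries held 0.227, 0.247, 0.25, 0.447 and 0.624 CPM, and the day 16 libraries 0.0899, 0.181, 0.187, 0.358 and 2.03 CPM. All contralateral day 5 libraries exceeded all later ones, and the library 4-184 alone raised the day 5 mean to 64.8 ± 109.6 CPM.

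DMBT1 fell in each horn from day 5 to day 7. The contralateral fall was 6.08 ± 1.06 on the log2 scale, with an adjusted p of 0.000618 by edgeR, and without the library 4-184 the log2 fold change was -4.06 with an adjusted p of 0.00188. The ipsilateral fall was 3.02 ± 1.05 on the log2 scale, from 9.21 ± 6.34 to 1.12 ± 0.766 CPM, with an adjusted p of 0.0377 by edgeR. That call was lost when any 1 of 8 libraries was left out (adjusted p 0.0512 to 0.0867). The level stayed low from then on: from day 7 to day 13 the log2 fold changes were -0.68 ± 1.04 and -1.40 ± 1.12 (adjusted p 0.673 and 0.362 by edgeR). By day 13 the falls from day 5 were 3.70 ± 1.10 and 7.48 ± 1.16 on the log2 scale (adjusted p 0.0112 and 3.46e-05 by edgeR), the latter -5.48 without the library 4-184. By day 16 the contralateral fall was 6.81 ± 1.11 on the log2 scale (adjusted p 6.18e-05 by edgeR), or -4.82 without 4-184. The ipsilateral change over that span was -2.56 ± 1.03 with an adjusted p of 0.0553 by edgeR. It passed at -4.71, with an adjusted p of 0.0016, without the library 5-137, and without 6-203 or 8-1350 (adjusted p 0.0436 and 0.0372). It also passed with all 40 libraries, by DESeq2 and by limma-voom (adjusted p 0.0376, 0.0358 and 0.00705).

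PIGR, the IgA carrier, dipped on day 7. The ipsilateral libraries held 2.93, 4.92, 5.24, 6.48 and 11.6 CPM on day 5 and 0.227, 1.27, 1.47, 2.05 and 2.18 CPM on day 7. They held 6.39, 6.79, 8.82, 12.5 and 37.5 CPM on day 13 and 9.04, 10.8, 28.1, 28.9 and 34.6 CPM on day 16. No day 7 library reached the lowest library of another day. The contralateral libraries held 8.14, 8.25, 9.39, 9.56 and 36.5 CPM on day 5 and 0.665, 1.73, 1.75, 2.67 and 3.54 CPM on day 7. They held 8.03, 8.55, 17.7, 31.1 and 35.8 CPM on day 13 and 12.1, 13.3, 26.6, 40.2 and 43.2 CPM on day 16. Day 7 was again below and apart from the other days, which overlapped each other.

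The dip was called on its way down and on its way up. PIGR fell from day 5 to day 7 by 2.10 ± 0.58 on the log2 scale in the ipsilateral horn, 4.29-fold, with an adjusted p of 0.0119 by edgeR. Contralateral PIGR fell by 2.79 ± 0.58 on the log2 scale, 6.91-fold, with an adjusted p of 0.00237 by edgeR; without the library 4-184, the highest of that day, the log2 fold change was -2.09 and the adjusted p 0.00831. It then rose, from day 7 to day 13, 9.87-fold in the ipsilateral horn (log2 fold change 3.30 ± 0.60, adjusted p 0.000424 by edgeR) and 9.76-fold in the contralateral horn (3.29 ± 0.59, adjusted p 0.000242). The ipsilateral rise was 2.53 on the log2 scale, with an adjusted p of 0.0014, without the library 6-203. Against day 5, day 13 gave 1.2 ± 0.55 and 0.50 ± 0.53 on the log2 scale, and neither passed (adjusted p 0.0873 and 0.474 by edgeR). The ipsilateral value passed at 1.53, with an adjusted p of 0.0462, without the library 3-175, and was 0.44 without 6-203. By day 16 the means were 22.3 ± 11.6 and 27.1 ± 14.6 CPM (SD, n = 5). Against day 5 this was 3.55-fold higher in the ipsilateral horn, at 1.83 ± 0.56 on the log2 scale with an adjusted p of 0.014 by edgeR. Its contralateral difference was 0.91 ± 0.53, with an adjusted p of 0.172, and it passed at 1.60, with an adjusted p of 0.0159, without the library 4-184. The summed epithelial markers are given beside it: their median was 1195, 1786, 1800 and 2002 CPM on days 5, 7, 13 and 16 in the ipsilateral horn and 1943, 2118, 2335 and 2094 CPM in the contralateral horn. That sum does not separate gland from surface epithelium, and the part of either in the dip was not tested.

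**Figure D3:**
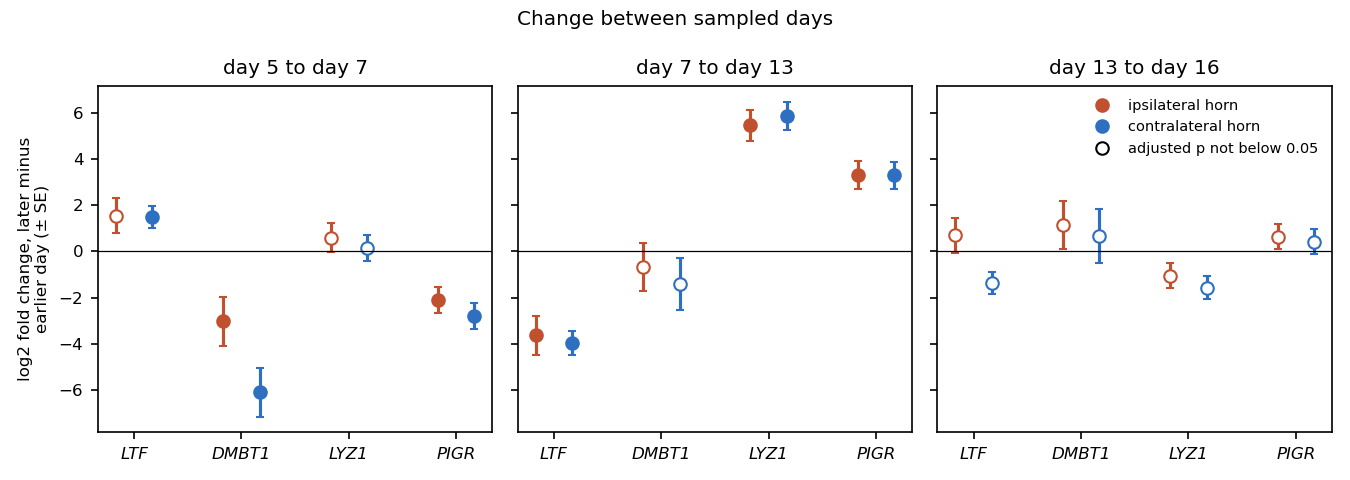
Log2 fold change between consecutive sampled days for the 4 genes tested in each horn, with SE as bars and filled points where the adjusted p was below 0.05. From day 7 to day 13 LTF lies near -4 while LYZ1 and PIGR lie above 3 in each horn, and from day 13 to day 16 no point is filled.

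Partners of PIGR in the IgA route took other courses. IGJ, the older symbol of the joining chain that links IgA into the dimers PIGR carries, held 4.88, 7.15, 11.1, 16.6 and 31.1 CPM in the ipsilateral libraries of day 5 and 6.92, 8.68, 35.3, 142.8 and 600.2 CPM in those of day 7. Contralateral libraries held 4.85, 5.54, 8.10, 8.73 and 9.48 CPM on day 5 and 5.84, 6.68, 19.1, 228.2 and 537.3 CPM on day 7. On day 13 IGJ held 13.7, 15.2, 23.2, 157.5 and 258.7 CPM (ipsilateral) and 7.97, 11.5, 13.9, 158.6 and 526 CPM (contralateral). From day 7 to day 13 its log2 fold changes were -0.77 ± 1 and -0.16 ± 1.1 (adjusted p 0.607 and 0.925 by edgeR). High IGJ was thus a feature of some libraries of days 7 and 13, and on day 7 the tag 2-1337 had the highest level in each horn. The rise from day 5 to day 7 passed by edgeR, at 3.49 ± 1.10 (adjusted p 0.0233) and 4.45 ± 1.28 (adjusted p 0.0185) on the log2 scale, but not by limma-voom (adjusted p 0.292 and 0.305). Without the library 2-1337 of the horn it was 1.80 (adjusted p 0.154) and 3.16 (adjusted p 0.0639), and the ipsilateral call was also lost without 8-1350 (adjusted p 0.0511) and with the libraries of the 2 days only (adjusted p 0.0505). The other 12 B cell and plasma cell markers in the table, without IGJ and BLNK (median 76.3 CPM over the libraries), summed to 19.9 to 34 CPM on ipsilateral day 7 and to 12.4 to 28.6 CPM on ipsilateral day 5, and to 22.9 to 43 and 19.9 to 31.6 CPM in the contralateral horn. Those ranges overlapped. With BLNK kept, the 13 markers without IGJ summed to 98.35 to 137 CPM on ipsilateral day 7 and 50.77 to 71.57 CPM on ipsilateral day 5. In the contralateral horn they summed to 87.91 to 135.6 and 68.42 to 78.24 CPM, so these sums did not overlap between the days in either horn. The part of these markers in the rise of IGJ was not tested. CCL28, a chemokine that draws IgA-producing cells to mucosal surfaces, had its highest medians on day 7 and fell from day 7 to day 13 by 3.09 ± 0.43 and 3.15 ± 0.42 on the log2 scale (adjusted p 3.16e-05 and 9.73e-06 by edgeR), while PIGR rose. Its means were 6.87 ± 3.07 and 6.59 ± 2.45 CPM on day 7 and 0.815 ± 0.168 and 0.747 ± 0.262 CPM on day 13.

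**Figure D4:**
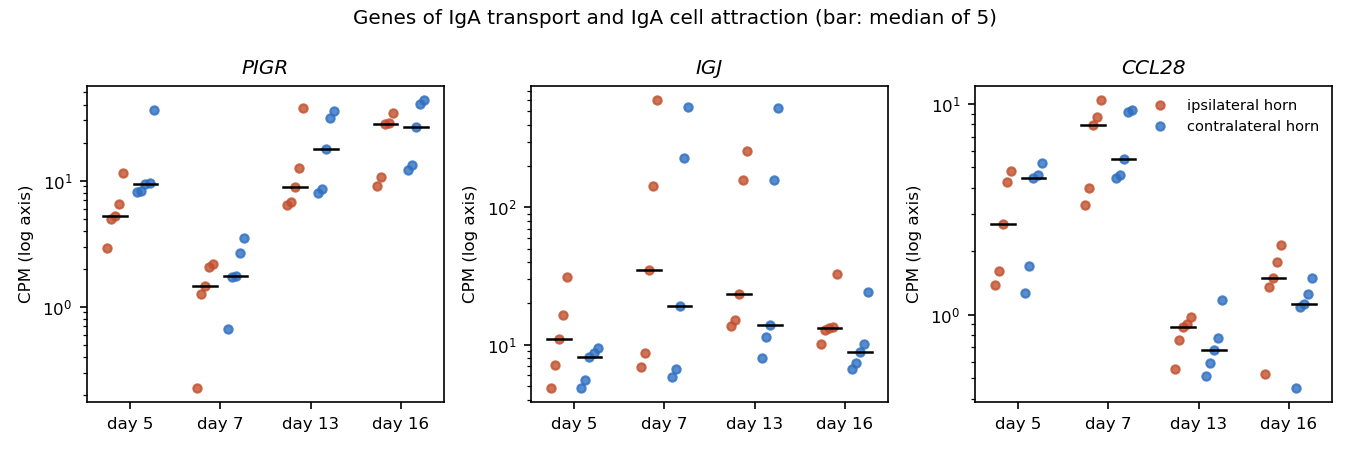
CPM on a log axis of PIGR, IGJ and CCL28 in each library, by day and horn, with medians of 5 as bars. PIGR is lowest and CCL28 highest on day 7, and IGJ exceeds 100 CPM in 8 libraries, all of days 7 and 13.

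Between the horns a single call was made among these genes. The main fit had no replicate block, so libraries that share a tag were treated as independent. On day 5, 1 of the 5 genes passed, against 22.7% of all genes, and none passed on day 7, 13 or 16, against 11.7%, 5.72% and 4.53% of all genes, or over the average of the days, against 38.2%. The gene that passed was DMBT1, 6.88-fold lower in the ipsilateral horn on day 5, with a log2 difference of -2.78 ± 0.97 and an adjusted p of 0.0342 by edgeR, although the libraries of the horns overlapped. It rested on the contralateral library 4-184: without it the difference was -0.77, with an adjusted p of 0.634. With the animal tag as a replicate block it was -1.72, with an adjusted p of 0.177, and it was also lost when any 1 of 4 ipsilateral day 5 libraries was left out (adjusted p 0.0548 to 0.0767). In the same samples 9 of the 15 epithelial markers were lower in the ipsilateral horn and none higher. Their summed level was 1047 to 1565 CPM there and 1580 to 2117 CPM in the contralateral horn, and its part in the difference was not tested.

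PIGR had the lower mean in the ipsilateral horn on each day. The log2 differences were -1.17 ± 0.56, -0.47 ± 0.61, -0.47 ± 0.55 and -0.26 ± 0.55 on days 5, 7, 13 and 16, and none passed (adjusted p 0.137, 0.732, 0.764 and 0.912 by edgeR). Averaged over the days the difference was -0.59 ± 0.28, with an adjusted p of 0.0987, and it passed at -0.79, with an adjusted p of 0.0182, without the ipsilateral day 13 library 6-203. LTF was -0.89 ± 0.66, -0.81 ± 0.65 and -0.49 ± 0.66 on days 5, 7 and 13, and 1.58 ± 0.67 on day 16 (adjusted p 0.363, 0.514, 0.807 and 0.216 by edgeR). The day 16 value turned to -0.47 without the library 5-137, and the average of the days went from -0.15 ± 0.33 to -0.66, with an adjusted p of 0.0327, without it. LYZ1 differed by -0.20 ± 0.63, 0.26 ± 0.62, -0.16 ± 0.53 and 0.35 ± 0.53 on the 4 days, with adjusted p between 0.857 and 0.938 by edgeR. LCN2 differed by at most 0.99 ± 0.70 in size, on day 5, with an adjusted p of 0.342. Whether the difference between the horns changed with the day was tested over 20356 genes, and 0 passed (0% of all genes) by edgeR and by DESeq2. An unadjusted p below 0.05 by edgeR was found for 572 genes, 2.81% of those tested. This is a smaller share than that cutoff marks when no gene changes. Among these genes were DMBT1 (0.0218) and LTF (0.0421). Their horn differences on day 5 (DMBT1) and day 16 (LTF) rested on the libraries 4-184 and 5-137, as given above. For PIGR, LCN2 and LYZ1 the unadjusted p was 0.68, 0.821 and 0.859 by edgeR.

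The groups were put in order by mean log2 CPM, and neighbours in that order were checked for overlap of their libraries. Such overlap is not a test. For DMBT1, ipsilateral days 5 and 7 and the horns on day 5 overlapped, yet both comparisons passed by edgeR, as given above. For LYZ1 the groups of days 13 and 16 came first and those of days 5 and 7 after them, and the only neighbours in that order whose libraries did not overlap were contralateral day 16 and contralateral day 5. For LTF the order ran from day 7 to day 5, day 13 and day 16, the contralateral horn above the ipsilateral horn within each day except day 16, and each neighbouring pair overlapped. For DMBT1 and PIGR each neighbouring pair overlapped as well, with contralateral day 5 at the top for DMBT1 and ipsilateral day 7 at the bottom for PIGR.

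Other genes of related roles were read from 7 lists. The counts of their genes that rose or fell stand against 28.8% (ipsilateral) and 20.4% (contralateral) of all genes called from day 5 to day 7, and 28.6% and 33.5% from day 7 to day 13. The medians stand against medians over all genes of -0.02 and 0 for the first span and 0.03 and 0.01 for the second. Of the iron-handling genes, 13 of 16 were tested. Between days 5 and 7, 2 rose and 3 fell in the ipsilateral horn (median log2 fold change -0.27), and 2 rose and 1 fell in the contralateral horn (median -0.19). TFRC, the transferrin receptor that brings iron into cells, fell by 1.43 ± 0.18 and 1.44 ± 0.25 on the log2 scale (adjusted p 2.98e-05 and 0.000618 by edgeR), and FTL, a chain of the iron store ferritin, rose by 0.63 ± 0.11 and 0.49 ± 0.12 (adjusted p 0.000307 and 0.00754). LRP2, the endocytic receptor megalin, which takes up many ligands including lipocalin 2, rose by 1.41 ± 0.46 and 1.36 ± 0.37 (adjusted p 0.0274 and 0.0125 by edgeR). As LTF fell, from day 7 to day 13, 1 and 3 of the 13 rose and none fell (medians 0.29 and 0.34). SLC40A1, the iron exporter ferroportin, was among them at 0.75 ± 0.19 and 0.80 ± 0.20 (adjusted p 0.00534 and 0.00484 by edgeR), after an ipsilateral fall of 0.71 ± 0.19 on the log2 scale from day 5 to day 7 (adjusted p 0.00959). STEAP4, a metalloreductase, rose in the contralateral horn by 1.01 ± 0.33 (adjusted p 0.0233). Of the list of lysozymes and other enzymes that attack bacteria, 6 (ipsilateral) and 7 (contralateral) of 18 were tested, LYZ2 alone rose from day 5 to day 7, and 2 fell from day 7 to day 13 in each horn (medians -0.58 and -0.67). In the list of IgA partners, 13 of 16 were tested. Up to day 7, 4 rose and 1 fell from day 5 (median 0.30) in the ipsilateral horn and 2 rose (median 0.41) in the contralateral horn. Beside IGJ, the ipsilateral calls of that span that met the rule for naming were CCL28 at 1.23 ± 0.39, CCR10, the receptor of CCL28, at 0.79 ± 0.22 and TGFB1 at -0.61 ± 0.21 (adjusted p 0.0258, 0.0113 and 0.0383 by edgeR). After it, by day 13, 1 and 2 fell and none rose (medians -0.40 and -0.16).

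Among collectins, scavenger and pattern receptors, 14 of 21 were tested, and 1 rose and 1 fell from day 5 to day 7 in each horn (medians -0.08 and -0.07). LGALS3, which encodes the sugar-binding lectin galectin 3, was the one that fell, by 0.73 ± 0.18 and 0.74 ± 0.20 on the log2 scale (adjusted p 0.00581 and 0.0115 by edgeR). From day 7 to day 13, 3 rose in each horn and 2 (ipsilateral) or 3 (contralateral) fell (medians 0.12 and 0.06). TFF3, a trefoil peptide of mucus, fell by 3.06 ± 0.65 and 2.71 ± 0.40 on the log2 scale (adjusted p 0.00152 and 3.44e-05 by edgeR). TLR5, the receptor for flagellin, rose by 1.09 ± 0.20 and 1.23 ± 0.24 (adjusted p 0.000398 and 0.000504), and NOD2, a sensor of peptidoglycan fragments, fell by 0.89 ± 0.18 and 1.24 ± 0.13 (adjusted p 0.00125 and 6.14e-07). LY96, the partner of the endotoxin receptor TLR4, rose by 0.80 ± 0.14 and 0.67 ± 0.17 (adjusted p 0.000254 and 0.00529), and TLR2, a receptor for bacterial lipoproteins, by 0.59 ± 0.21 and 1.01 ± 0.20 (adjusted p 0.0458 and 0.000564). Among antimicrobial peptides, S100 proteins and antiproteases, 15 (ipsilateral) and 16 (contralateral) of 31 were tested. Of these, 3 and 2 rose and 1 and 2 fell from day 5 to day 7 (medians 0.19 and 0.04), and from day 7 to day 13, 1 and 3 rose and 3 fell in each horn (medians -0.14 and -0.27). S100A12, a calcium-binding protein best known from granulocytes, had the largest change of the list among genes that met the rule for naming. In the contralateral horn it fell by 1.93 ± 0.61 on the log2 scale from day 5 to day 7 (adjusted p 0.0291 by edgeR) and rose by 3.11 ± 0.62 from day 7 to day 13 (adjusted p 0.000632), from 0.479 ± 0.3 to 4.17 ± 3.1 CPM. WFDC2, a small secreted antiprotease-type protein, rose by 1.10 ± 0.24 in the ipsilateral horn from day 5 to day 7 (adjusted p 0.00287) and fell from day 7 to day 13 by 1.32 ± 0.25 and 1.19 ± 0.30 on the log2 scale (adjusted p 0.000512 and 0.00486 by edgeR). PI3, the elastase inhibitor elafin, fell over the latter span by 1.89 ± 0.64 and 1.5 ± 0.54 (adjusted p 0.0313 and 0.0382), and CCL14, a chemokine, rose in the ipsilateral horn by 1.12 ± 0.40 (adjusted p 0.0407). The secreted epithelial protein genes BPIFB1 and BPIFA1 rose before it. From day 5 to day 7 BPIFB1 gave 1.62 ± 0.40 and 1.51 ± 0.39 (adjusted p 0.00595 and 0.0094 by edgeR). BPIFA1 gave 1.85 ± 0.45 in the contralateral horn (adjusted p 0.00688) and fell there by 1.65 ± 0.45 from day 7 to day 13 (adjusted p 0.00766). ADM, which encodes the peptide hormone adrenomedullin, fell from day 5 to day 7 by 1.37 ± 0.25 and 1.18 ± 0.33 (adjusted p 0.000613 and 0.0159).

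All 17 acute phase and complement genes were tested. In each horn 1 rose from day 5 to day 7, and 0 and 1 fell (medians 0.14 and 0.31). The gene that rose was CD46, a complement regulator, by 0.32 ± 0.10 and 0.27 ± 0.09 on the log2 scale (adjusted p 0.0232 and 0.033 by edgeR), and the one that fell was PTX3, a soluble pattern receptor, by 1.30 ± 0.37 (adjusted p 0.0169). Then, from day 7 to day 13, 3 rose in each horn and 1 and 2 fell (median 0.15 in each). The 3 that rose were shields of host cells against complement: CD59 by 1.74 ± 0.16 and 1.81 ± 0.13 on the log2 scale (adjusted p 7.25e-07 and 1.84e-08 by edgeR), CD55 by 1.24 ± 0.17 and 1.33 ± 0.19 (adjusted p 2.13e-05 and 3e-05), and CLU, or clusterin, by 1.18 ± 0.18 and 0.99 ± 0.17 (adjusted p 7.81e-05 and 0.000157). M-SAA3.2, which encodes the mammary-type serum amyloid A, fell in the contralateral horn by 2.21 ± 0.48 from day 7 to day 13 (adjusted p 0.00129 by edgeR), from 913 ± 330.9 to 198.3 ± 150.6 CPM. It was the only gene of the 7 lists to pass from day 13 to day 16, in the contralateral horn, at -2.49 ± 0.48 (adjusted p 0.0133), a call lost in the fit of all 40 libraries and in that of the 2 days alone (adjusted p 0.0623 and 0.0597). Of 30 genes of NF-kB, IL17 and IL22 signalling, 20 (ipsilateral) and 21 (contralateral) were tested. Over days 5 to 7, 2 and 1 rose and 4 fell in each horn (medians 0.05 and 0.01), and IL1RN, which encodes the blocker of the interleukin 1 receptor, fell by 1.18 ± 0.30 and 1.32 ± 0.28 (adjusted p 0.00693 and 0.00246 by edgeR). NFKBIA, which encodes an inhibitor of NF-kB, rose by 0.66 ± 0.12 and 0.50 ± 0.13 (adjusted p 0.000775 and 0.0122), while the NF-kB subunit gene NFKB2 fell by 0.55 ± 0.11 and 0.30 ± 0.10 (adjusted p 0.00171 and 0.0396) and RELB fell in the ipsilateral horn by 0.58 ± 0.15 (adjusted p 0.00751). Over days 7 to 13, 4 and 1 rose and 2 fell in each horn (medians 0.19 and 0.15), and IL17RC, a chain of the interleukin 17 receptor, rose by 1.05 ± 0.12 and 1.04 ± 0.14 (adjusted p 4.05e-06 and 1.72e-05 by edgeR). NFKBIA then fell by 0.44 ± 0.12 and 0.52 ± 0.13 (adjusted p 0.0102 and 0.00509), BCL3, a regulator of NF-kB dimers, fell by 0.48 ± 0.13 and 0.50 ± 0.15 (adjusted p 0.0083 and 0.0122), and NFKB2 rose in the ipsilateral horn by 0.37 ± 0.11 (adjusted p 0.0204). Of the list genes named, leaving out 1 library ended at least 1 call of LRP2, STEAP4, CCL28 (days 5 to 7), TGFB1, S100A12 (days 5 to 7), PI3, CCL14, ADM, CD46 and NFKB2, beside those of IGJ and LYZ2 given above. With the libraries of the 2 days only, at least 1 call was lost for LRP2, STEAP4, CCL28, TGFB1, PI3, CCL14, CD46 and NFKB2. Contralateral NFKBIA (days 5 to 7) lost its call there too (adjusted p 0.0639 by edgeR). By limma-voom, CCL14, contralateral NFKB2 and S100A12 (days 5 to 7) did not pass (adjusted p 0.0836, 0.0564 and 0.114). Without the filter, calls of CCL14, NFKB2 and TGFB1 were lost, and with all 40 libraries those of S100A12 (days 5 to 7) and contralateral PI3. The ipsilateral call of TLR2 and the contralateral call of LY96 were not among those checked in this way. Listed genes that passed a step between days 5, 7 and 13 without meeting the rule for naming, and that were picked out after their values were seen, are PGLYRP2, TF, IL10, CXCL13, SFTPA1, BPI, CXCL17, SLPI, SERPINB1, SAA4, CXCL5, IL22RA1, IL17RA, NFKB1 and STAT3.

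The genes whose log2 CPM ran most like each member over the 40 libraries were sought among 13447 genes, as a description only, since all libraries share the days. For LTF they were RCN1, FAM43A and ACY1, with Pearson's r of 0.969, 0.965 and 0.961. For LYZ1 they were LOC104976285, CST6 and CYP26A1, with r of 0.95, 0.947 and 0.938. CST6, which encodes the secreted protease inhibitor cystatin E/M, went from 9.34 ± 2.62 CPM on ipsilateral day 7 to 83.2 ± 18.2 CPM on ipsilateral day 13. For DMBT1 they were MFSD2A, MGAT5B and TUBA1B, with r of 0.878, 0.852 and 0.845, and MGAT5B stood at 46.8 ± 11.7 CPM on contralateral day 5 and 4.24 ± 1.56 CPM on contralateral day 7. For PIGR they were SQRDL, ACSF2 and CCDC85B, with r of 0.865, 0.851 and 0.844. For LCN2 no r exceeded 0.64, over counts too sparse to read one.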

How the data were processed

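Libraries were made from total RNA of endometrial homogenate with a stranded mRNA kit, per the labels' protocols. The authors deposited read counts per gene, and per the submitters' processing notes FastQC, HISAT2 and featureCounts were used with the build UMD3.1; tool versions and the strand setting of the counting are not given in the sources used here. The deposited counts were used as given, without the mitochondrial row (0.081% to 0.578% of reads) and 1 row that held sample titles. Groups came from the sample titles. CPM are on TMM-scaled library sizes (factors 0.923 to 1.053).

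Days were compared in edgeR 4.0.16 with the 20 libraries of a horn, and horns with all 40, after filterByExpr. The fitting scripts were tested on simulated data. Alternatives were DESeq2 size factors in edgeR, no filter, DESeq2, limma-voom, other sets of libraries, the share of reads in microRNA and tRNA genes as a covariate, a replicate block, and leaving out each library. The numbers shared by the horns are tags in the titles, read as those of the heifers, since the design text says both horns came from each heifer. Same-tag libraries deviated together (r above 0.1) for 5 of 20 tags, with r from -0.259 to 0.669. The members and lists were chosen with earlier results of these data known. List genes named are up to 4 per list, horn and step between consecutive days, those past the threshold with the largest change and a mean log2 CPM of at least 0; like genes are the 3 highest r at a mean log2 CPM of at least 2 (prior count 2). Lysozyme rows are named whatever their values.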

Additional observations from a re-analysis of the deposited data

Results flagged for a closer look

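In 8 of the 40 groups of 5 libraries (5 genes in 8 groups), the highest library stood so far from the others that its gap to the next, as a share of the group's range, exceeded Dixon's 95% critical value of 0.71. For normally distributed values chance alone marks about 1 in 20 groups. The rule was applied to CPM without a log transform, and all 8 marks were on the high side. DMBT1 was marked 4 times. Its contralateral day 5 library 4-184 held 260.1 CPM against 7.235 to 28.9 CPM in the others, and its contralateral day 16 library 8-245 held 2.03 CPM against 0.0899 to 0.358 CPM. Its ipsilateral day 13 library 6-203 held 2.302 CPM against 0.227 to 0.379 CPM, and its ipsilateral day 16 library 5-137 held 6.45 CPM against 0.0297 to 1.02 CPM. LTF was marked in the ipsilateral day 7 library 4-064, at 1010 CPM against 391.7 to 427.2 CPM, and in the ipsilateral day 16 library 5-137, at 280.3 CPM against 11.01 to 22.5 CPM. PIGR was marked in the contralateral day 5 library 4-184, at 36.54 CPM against 8.14 to 9.56 CPM, and in the ipsilateral day 13 library 6-203, at 37.46 CPM against 6.39 to 12.5 CPM.

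The libraries 4-184 and 6-203 were thus high in DMBT1 and PIGR together, and 5-137 in DMBT1 and LTF together. The library of the same tag in the other horn was not marked for these genes. The ipsilateral day 5 library 4-184 held 10.5 CPM of DMBT1 and 4.92 CPM of PIGR, each within the range of its group. The contralateral day 16 library 5-137 held 12.7 CPM of LTF, the lowest of its group, and 0.187 CPM of DMBT1. The contralateral day 13 library 6-203 held 0.227 CPM of DMBT1, the lowest of its group. Its PIGR was in the upper part of its group, at 31.1 CPM where the highest library held 35.8 CPM.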

How the results depend on the processing

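All 8 calls of LYZ1 between early and late days, the falls of LTF and the rises of PIGR from day 7 to day 13, and the contralateral falls of DMBT1 from day 5 kept direction and call under every alternative run. The number of mucosal defence genes called moved by over 1.5 times in these cases. From day 13 to day 16 in the contralateral horn it was 1 by limma-voom (LYZ1) and 0 otherwise. For days 5 to 16 in the ipsilateral horn it was 2, 4 by limma-voom, 3 by DESeq2 and with all 40 libraries, and 2 to 4 with 1 library left out. For days 5 to 7 in the ipsilateral horn it was 2, 3 with the libraries of the 2 days only, and 1 to 3 with 1 library left out. For the horns on day 5 it was 1, and 0 by limma-voom, with the microRNA and tRNA share as a covariate, with the day's own libraries only, with the replicate block, and without any 1 of 5 libraries (range 0 to 1); for the average of the days it was 0, and 0 to 1 with 1 library left out. Smaller moves with 1 library left out were 2 to 3 for days 5 to 7 and 3 to 4 for days 5 to 13 and 5 to 16 (contralateral), and 2 to 4 for days 5 to 13 (ipsilateral). With all 40 libraries the contralateral count for days 5 to 7 was 2. The replicate block changed no other call of these genes.

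Values that changed sign were all uncalled. By limma-voom, DMBT1 gave -0.12 and -0.33 from day 13 to 16 (contralateral, ipsilateral) and -1.14 from day 7 to 16 (ipsilateral), LTF -0.31 from day 13 to 16 (ipsilateral), and LYZ1 -0.26 from day 5 to 7 (contralateral). LCN2 gave -0.28 and -0.32 from days 13 and 7 to 16 (contralateral) and 0.10 and 0.21 between the horns on days 16 and 7. With the covariate, horn differences were 0.53 for LCN2 on day 7, 0.93 and 0.86 for LYZ1 on days 5 and 13, and for PIGR 0.27, 0.26 and 0.17 on days 7, 13 and 16 and 0.07 on average. The covariate itself varied with the horn. The median share was 0.012%, 0.012%, 0.015% and 0.014% in the ipsilateral horn on days 5, 7, 13 and 16. It was 0.009%, 0.01%, 0.012% and 0.012% in the contralateral horn, so this fit cannot fully separate the share from the horn. With 1 library left out, DMBT1 ran from -0.80 to 0.97 (contralateral) and -1 to 2.40 (ipsilateral) from day 13 to 16 and from -1.70 to 0.76 from day 7 to 16 (ipsilateral). Its horn difference ran from -0.02 to 0.68, -0.29 to 1.30 and -0.69 to 2.90 on days 7, 13 and 16, and -0.54 to 0.49 on average. LCN2 ran from -0.43 to 0.51 from day 7 to 16 (contralateral), and between the horns from -0.53 to 0.20 on day 7 and -1.25 to 0.06 on day 16. LTF ran from -1.32 to 1.21 from day 13 to 16 (ipsilateral) and from -0.47 to 1.85 between the horns on day 16. LYZ1 ran from -0.54 to 0.37 (contralateral) and -0.02 to 0.85 (ipsilateral) from day 5 to 7, and between the horns from -0.36 to 0.94 on day 7, -0.36 to 0.09 on day 13 and -0.09 to 0.23 on average. Among the lysozyme rows from day 7 to 13 (contralateral), LOC617219 gave -0.01 by limma-voom and ran from -0.45 to 0.55, and LYZ from -0.19 to 0.40. The cause of these changes was not tested.

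Counts of all genes called moved by over 1.5 times in some settings. From day 13 to 16 they were 328 contralateral (716 by DESeq2, 216 with the libraries of the 2 days, 134 to 410 with 1 library left out) and 88 ipsilateral (360 by DESeq2, 22 with the 2 days, 208 with all 40 libraries, 19 to 180). Between the horns they were 4628, 2386, 1165 and 922 on days 5, 7, 13 and 16 and 7768 on average. With the covariate they were 2184, 209, 107, 255 and 1994. DESeq2 gave 1790 and 1455 on days 13 and 16, the day's own libraries 2884 and 742 on days 5 and 13, and leaving out 1 library 1462 to 3024, 657 to 1299 and 550 to 1090 on days 7, 13 and 16. With 5 libraries a group, low counts limit LCN2 at every day and DMBT1 after day 5.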
